A study of Mus musculus with 26 samples.

Results

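The Gimap genes encode GTPases of immunity-associated proteins, small GTP-binding proteins made mainly by lymphocytes. The members taken here, by name, were Gimap1, Gimap3, Gimap4, Gimap5, Gimap6, Gimap7, Gimap8 and Gimap9, which are 8 of the 35865 genes with transcripts in the files. All 8 passed the filter on low counts (at least 10 counts in at least 6 libraries), as did 14600 genes in the fit of 11 libraries and 15449 genes in the fit of 14 libraries. The members split by direction in the livers of leukemia-bearing mice. Gimap7, Gimap5, Gimap4 and Gimap1 were higher at the late time point than in control cells, Gimap8 was lower, and the clearest of these changes was that of Gimap7, from a mean of 62.4 ± 21.6 (SD, n = 3) to 267.7 ± 74.0 (SD, n = 2) CPM (counts scaled to a common library size).

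RNA-seq was performed on TCRTg101, CD8+ T cells with 1 transgenic receptor (Tg101) that recognizes cells of the mouse leukemia line C1498. The donor mice carried the Tg101 transgene on a Rag2-/- background, so that the cells were of a single clonal specificity, and TCRTg101 were transferred into mice that received C1498 cells intravenously 1 day later. Cells were sorted from spleen or liver and low-input RNA libraries were sequenced. The question put to the time course was how these T cells change as leukemia progresses.

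All libraries were labelled as mouse strain C57BL/6, wild type, 6 weeks of age. The control group held 3 libraries of TCRTg101 labelled spleen, 2 labelled naive Tg101 at day 0 and 1 from untreated mice at day 18. The undivided group was 1 library of CTVhi cells from leukemia-bearing mice at day 18, that is, cells that had kept the division dye CellTrace Violet, also labelled spleen. Leukemia-bearing mice gave 2 spleen libraries at day 7 (early) and 1 at day 14 (mid). Their livers gave 2 libraries at day 7 (early), 3 at days 13 and 14 (mid) and 2 at days 16 and 18 (late). One further control library, labelled naive Tg101 with no day, was made with oligo-dT priming and entered no comparison. Leukemia and tissue changed together wherever a liver group was compared with the controls, and 2 of the 3 controls were also from day 0. Leukemia, tissue and day cannot be told apart in those comparisons. The labels do not say whether libraries of a group came from separate animals, so p-values measure only the spread between these libraries, which may be technical.

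The members were well covered. The 14 low-input libraries held 22679819 to 70706990 estimated counts and the lowest value of any member in any of them was 38.9 CPM. The titles give the libraries 2 series, TG and XC, which were taken as the batches, and TG holds 1 control, 1 mid liver and 1 late liver library. All 8 T cell markers (Cd3d, Cd3e, Cd3g, Cd2, Cd8a, Cd8b1, Lck and Thy1) had counts in every group, with a summed level of 3913.5 to 9103.6 CPM. Red cell genes (3 of 3 detected) summed to at most 9766.6 CPM in controls, where the highest Hbb-bs values, 1930.1 and 7917.8 CPM, were those of the day 0 libraries. The same sum was 54.0 CPM in the undivided library, 0.806 to 12.0 CPM in spleen libraries of leukemia-bearing mice, 1.90 to 45.3 CPM in early liver, 1.94 to 102.0 CPM in mid liver and 17.1 to 71.0 CPM in late liver. The hepatocyte gene Alb, at most 0.719 CPM in control, undivided and spleen libraries, reached 85.2 CPM in the TG mid liver and 130.6 CPM in the TG late liver library, against 0.907 to 24.3 CPM in the XC libraries of those groups. Trf, another of the 5 hepatocyte markers, was instead highest in the TG control, at 315.2 CPM against at most 62.5 CPM in liver, so the sum over the list was 0.967 to 315.2 CPM in controls, 2.28 to 176.2 CPM in mid liver and 69.1 to 295.7 CPM in late liver. The 5 B cell markers summed to 11.6 to 43.9 CPM throughout. The 5 endothelial markers summed to 65.9 to 187.0 CPM, of which Pecam1, which T cells also express, was 65.2 to 186.2 CPM. Myeloid markers (6 of 6 detected) summed to 10.6 to 493.0 CPM in controls and to 12.1 to 50.1 CPM in mid and late liver. Natural killer cell markers summed to 1158.9 to 3904.5 CPM in mid and late liver, which was nearly all Nkg7, a cytotoxic granule gene that activated CD8+ T cells share, while Ncr1 was at most 0.471 CPM there. The part of these cells in the results below was not tested.

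GIMAP proteins share a GTP-binding domain, and several are held on membranes of intracellular organelles by their carboxy-terminal ends. They act as dimers or oligomers whose assembly depends on bound nucleotide, and they are known for their effect on how long lymphocytes survive. Loss of Gimap5, a protein of lysosomes and late endosomes, causes lymphopenia in mice and rats, and loss of Gimap1 removes most mature T and B cells.

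The 8 genes lie side by side on chromosome 6 (GRCm38), over 123.6 kb from the start of Gimap8 to the end of Gimap3, chr6:48647234-48770851. In order along the chromosome they are Gimap8 (chr6:48647234-48660875), Gimap9 (chr6:48676129-48679114), Gimap4 (chr6:48684549-48692060), Gimap6 (chr6:48701582-48708225), Gimap7 (chr6:48718621-48724636), Gimap1 (chr6:48739054-48743795), Gimap5 (chr6:48746197-48754210) and Gimap3 (chr6:48764464-48770851). Gimap6 and Gimap3 are on the minus strand and the others on the plus strand. Each is annotated as protein coding, with 2 to 6 transcripts in the files.

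The P-loop, the motif that holds the phosphates of GTP, is shown because all 8 genes carry it, though it is not particular to this family. A search of the reading frame of 1 coding transcript of each gene found 10 matches, 3 of them in Gimap8, whose protein carries several GTPase domains, and 1 in each of the others. The 24 bases (8 codons) of each match are given from the coding sequence of the GENCODE vM21 transcripts, and capitals mark the 11 bases that were identical in all 10.
Gimap7: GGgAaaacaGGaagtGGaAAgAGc
Gimap9: GGgAagactGGaaatGGgAAgAGt
Gimap3: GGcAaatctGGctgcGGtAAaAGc
Gimap5: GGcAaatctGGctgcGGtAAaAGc
Gimap1: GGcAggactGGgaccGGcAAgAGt
Gimap4: GGaAaaactGGagcaGGaAAgAGt
Gimap6: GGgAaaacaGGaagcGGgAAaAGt
Gimap8, domain 1: GGgAaacagGGcgcaGGcAAaAGt
Gimap8, domain 2: GGgAagcgtGGtgttGGgAAaAGt
Gimap8, domain 3: GGaAggagtGGggctGGaAAgAGt

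Gimap3 and Gimap5 had the same 24 bases. Their coding sequences were 88.3% identical over 906 aligned bases, against 65.1% for Gimap7 and Gimap9 and 49.0% to 59.9% for the other pairs among the 7 genes with 1 P-loop. The longest run the pair shares is shown because reads from it cannot be assigned to 1 gene by sequence. It covers 140 bases, coding positions 175 to 314 of Gimap3 and 187 to 326 of Gimap5, counted from 1 at the A of the start codon.
Gimap3 and Gimap5: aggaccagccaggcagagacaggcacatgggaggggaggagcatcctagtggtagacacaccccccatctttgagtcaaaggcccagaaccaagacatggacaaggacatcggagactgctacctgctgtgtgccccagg

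Of all 31-base words in its transcripts, Gimap3 shared 14.3% with another gene (13.2% with Gimap5) and Gimap5 shared 10.3% (8.0% with Gimap3). Gimap1 shared 8.4%, of which 5.4% was with Gm28053, a gene model whose exons run through the Gimap7, Gimap1 and Gimap5 genes. For Gimap7 the share was 2.2%, for Gimap6 1.4% and for Gimap8 1.1%, and it was 0.0% for Gimap4 and Gimap9. Values of Gimap3 and Gimap5 are therefore the least certain as to which gene a read came from.

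In control cells the family was abundant. Levels between genes were compared in TPM, which corrects for transcript length as well as depth. Gimap6 (342.9 ± 19.5 TPM, SD, n = 3) and Gimap3 (335.2 ± 57.2 TPM) were highest, with median ranks of 272 and 253 among all genes. Gimap4 (243.9 ± 83.6 TPM), Gimap1 (226.7 ± 40.4 TPM) and Gimap5 (140.0 ± 34.5 TPM) followed. Gimap9 (88.0 ± 5.51 TPM), Gimap7 (48.4 ± 14.8 TPM) and Gimap8 (42.4 ± 17.3 TPM) were lowest. In this order the neighbours Gimap1 and Gimap5, Gimap5 and Gimap9, and Gimap9 and Gimap7 did not overlap between the 3 libraries, and each of the other neighbouring pairs did.

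In late liver libraries the order of the means was different. Gimap4 (291.9 ± 193.8 TPM, SD, n = 2) and Gimap1 (266.4 ± 59.2 TPM) were highest, then Gimap5 (213.1 ± 1.70 TPM) and Gimap3 (211.9 ± 81.5 TPM), and of these 4 only Gimap1 and Gimap5 did not overlap. Gimap4 was at 429.0 TPM in the XC library and at 154.9 TPM in the TG library, where Gimap1 (224.5 TPM) and Gimap5 (211.9 TPM) were higher. Gimap6, the highest in controls, was at 162.9 ± 75.1 TPM and Gimap7 at 147.5 ± 14.3 TPM, with overlapping libraries. Gimap9 was at 59.0 ± 3.59 TPM and Gimap8 at 15.5 ± 12.1 TPM, and neither overlapped its neighbours in the order. The summed TPM of the 8 genes was 1325.1, 1412.2 and 1665.1 in the controls and 1056.2 (TG) and 1680.4 (XC) in late liver, so that the total overlapped while its parts shifted.

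**Figure D1:**
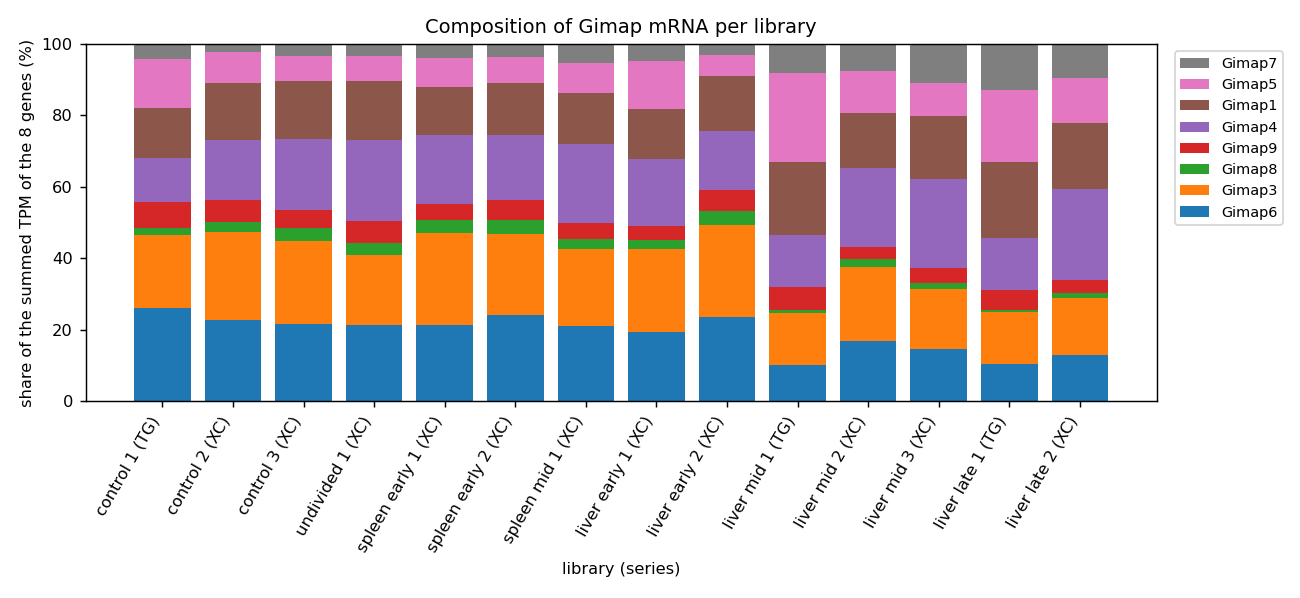
Each bar is 1 low-input library and its colours divide the summed TPM of the 8 Gimap genes (vertical axis, % of the sum). The share of Gimap7 was 2.22% to 4.23% in controls and 7.42% to 13.0% in mid and late liver libraries, and the share of Gimap6 was 21.7% to 26.0% in controls and 10.2% to 17.0% in those liver libraries.

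Gimap7, whose protein hydrolyses GTP as a dimer, had the largest change of the family. It was at 82.4, 39.5 and 65.2 CPM in the 3 control libraries and at 66.0 CPM in undivided cells. The early liver libraries were at 75.7 and 55.2 CPM, the mid liver libraries at 147.5, 163.7 and 230.3 CPM and the late liver libraries at 320.1 and 215.4 CPM. Every mid and late liver library was above every control, undivided, spleen and early liver library. The log2 fold change over control was 1.55 ± 0.31 (SE) at the mid time point (adjusted p = 0.022, quasi-likelihood test of edgeR, adjusted after Benjamini and Hochberg, as for each adjusted p below) and 2.03 ± 0.33 at the late time point (adjusted p = 0.00939), a 4.09-fold higher level. Within the TG series the late library was higher than the control by 1.96 (log2) and within the XC series by 2.04.

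Gimap5 was at 205.2, 122.5 and 125.3 CPM in controls and 125.9 CPM in undivided cells. In liver it was at 163.5 and 105.1 CPM early, 321.9, 195.4 and 156.8 CPM mid and 400.6 and 204.8 CPM late. The XC late library lay just below the TG control, so the groups overlapped, but within each series the late library was the higher one, by 0.97 (TG) and 0.72 (XC) on the log2 scale. The fitted log2 fold change late over control was 0.80 ± 0.22 (adjusted p = 0.0259).

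Gimap1, a protein of the Golgi, varied little in controls, at 315.0, 297.6 and 316.2 CPM. It stood at 325.5 CPM in undivided cells, 230.8 and 292.1 CPM in early liver, 427.4, 351.1 and 387.9 CPM in mid liver and 586.9 and 445.7 CPM in late liver. In CPM all 5 mid and late liver libraries were above all 3 controls, and the early liver libraries were below them. In TPM the mid and late liver libraries (201.2 to 308.2) overlapped the controls (186.9 to 267.7). The share of all genes below the controls in early liver was not counted. Late over control the log2 fold change was 0.67 ± 0.19 (adjusted p = 0.028), and at the mid time point it was 0.30 ± 0.17 (adjusted p = 0.192).

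Gimap4, which has been linked to the pace of T cell death, was at 300.5, 381.3 and 466.7 CPM in controls, 532.6 CPM in undivided cells, 389.6 and 368.4 CPM in early liver, 296.4, 635.5 and 703.8 CPM in mid liver and 431.0 and 767.4 CPM in late liver. The TG library was the lowest of its group in all 3 groups that have one. The log2 fold change late over control was 0.71 ± 0.22 (adjusted p = 0.0327). At the mid time point the XC libraries differed from XC controls by 0.66 on the log2 scale and the TG library from the TG control by -0.02, and the fitted value of 0.41 ± 0.19 did not pass the test (adjusted p = 0.128).

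Gimap8 moved the other way. It was at 97.2, 114.3 and 163.6 CPM in controls, 153.2 CPM in undivided cells, 101.3 and 158.2 CPM in early liver, 38.9, 127.4 and 90.0 CPM in mid liver and 39.1 and 76.3 CPM in late liver. Both late libraries were below all controls, and the lowest values of the mid and late groups were those of the TG series. The late level fell by 1.06 ± 0.32 on the log2 scale (adjusted p = 0.033), and the mid value was -0.70 ± 0.28 (adjusted p = 0.0848).

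Gimap6, which has been tied to autophagy through its binding of a GABARAP family protein, was at 740.2, 623.4 and 551.7 CPM in controls, 536.6 CPM in undivided cells, 418.4 and 587.8 CPM in early liver, 249.0, 507.3 and 415.5 CPM in mid liver and 334.8 and 402.8 CPM in late liver. All 5 mid and late liver libraries were below all 3 controls. The log2 fold changes over control were -0.78 ± 0.27 at the mid time point (adjusted p = 0.0577) and -0.80 ± 0.31 at the late time point (adjusted p = 0.0669), neither of which passed the threshold alone. In the contrast of mid and late liver together with control, Gimap6 fell by 0.79 ± 0.24 on the log2 scale (adjusted p = 0.0257).

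Gimap3 and Gimap9 passed the test in none of the 3 contrasts of mid or late liver with control. Gimap3, a close relative of Gimap5 found on the endoplasmic reticulum, was at 721.8 to 763.8 CPM in controls, 468.8 to 787.4 CPM in mid liver and 630.8 and 644.1 CPM in late liver. Its late log2 fold change was -0.21 ± 0.23 (adjusted p = 0.47), opposite in sign to that of Gimap5. Gimap9 was at 96.3 to 129.7 CPM in controls, 68.4 to 95.2 CPM in mid liver and 80.1 and 107.7 CPM in late liver, with a late log2 fold change of -0.34 ± 0.26 (adjusted p = 0.31).

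**Figure D2:**
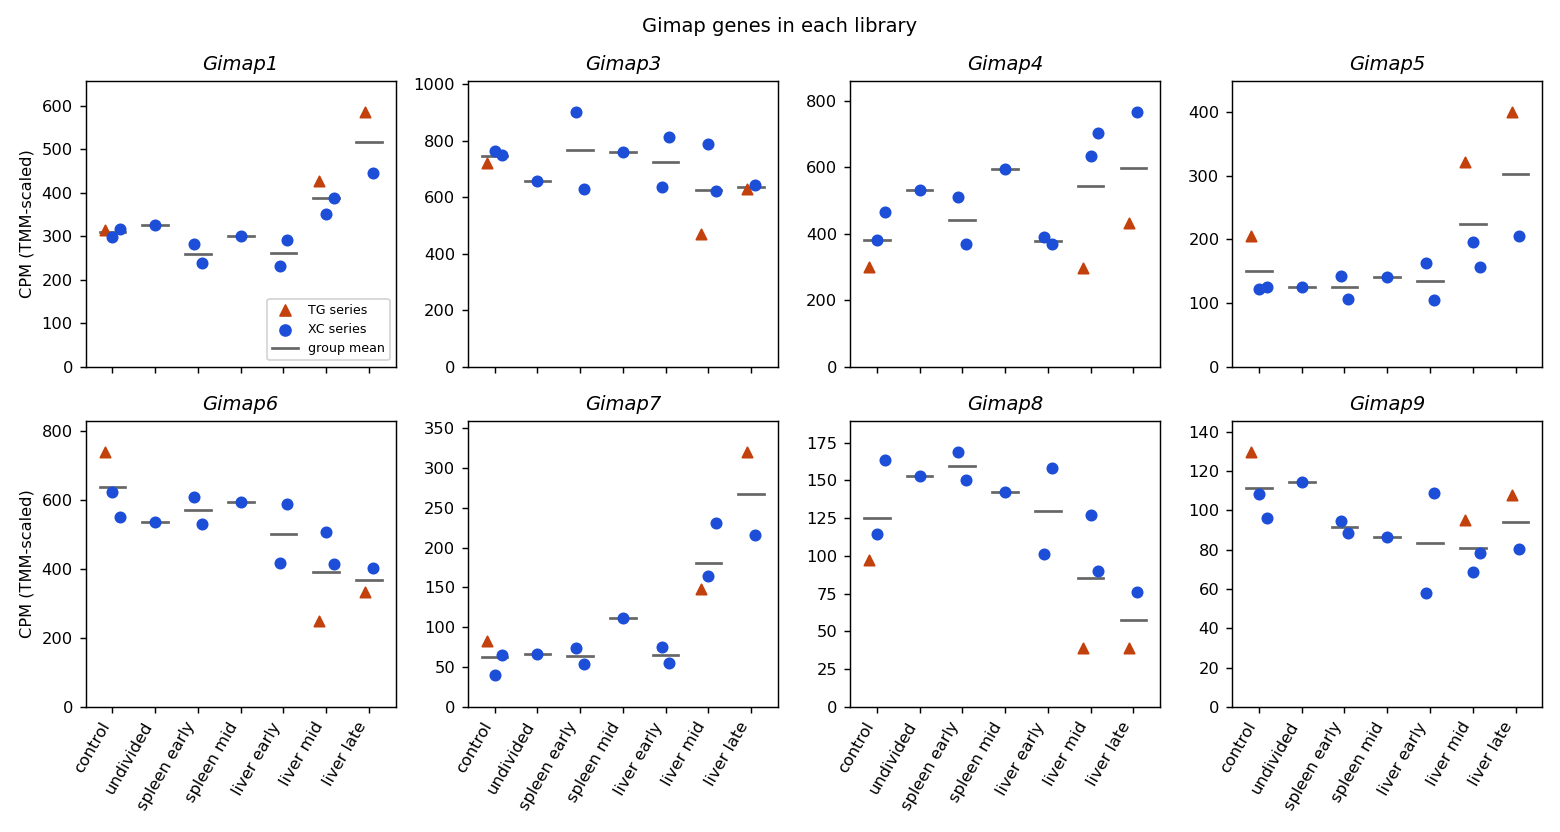
Each panel is 1 Gimap gene, with its level in CPM (vertical axis from 0, scaled between libraries) in the 14 low-input libraries by group. Triangles are libraries of the TG series, circles those of the XC series, and grey lines are group means. Gimap7 lay at 39.5 to 111.1 CPM in the control, undivided, spleen and early liver libraries and at 147.5 to 320.1 CPM in mid and late liver.

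By count, 5 of the 8 members were called in late liver against control (adjusted p under 0.05), 4 higher and 1 lower, where 37.5% of all 14600 genes were called, 19.8% higher and 17.7% lower. In mid liver 1 of 8 was called (Gimap7), against 31.3% of all genes. In mid and late liver together 6 of 8 were called, 4 higher and 2 lower, against 47.3% of all genes. The median log2 fold change of the members was 0.23 late and 0.01 mid, and over all genes it was -0.03 and -0.06. In CPM, 2 of the 8 genes (Gimap1 and Gimap7) lay above control in all 5 mid and late liver libraries, where 19.8% of all genes did. Below control in all 5 lay 1 (Gimap6), where 18.0% of all genes did. These comparisons share the 3 control libraries, so their counts are not independent of each other. RNA was measured in bulk, and fewer cells that express a gene and less RNA per cell cannot be told apart.

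The number called depended on single libraries, while no member changed sign under any alternative. In late liver 0 of 8 were called without the TG control, without the TG late library or without the XC late library, 2 without the XC day 0 control and 1 without the day 18 control. Over all genes the first 3 of these fits called 148, 0 and 0, and the others 3390 and 4126, so the calls of the whole table were lost with those of the members. In mid liver 0 were called without either day 0 control and without the TG or the day 14 liver library, and 5 without either of the early liver libraries. Those 4 fits with 0 members called 0 or 1 of all genes, and the fits without an early library 5906 and 5973. In mid and late liver together 0 were called without the TG control (6 of all genes), 1 to 3 without each of the other controls, each late library and the day 14 library (3868 to 5417 of all genes), and 7 without either early library (7595 and 7679 of all genes). Scaled by library totals alone, 1 member was called higher and 2 lower in late liver, and the calls over all genes moved from 52.9% to 33.5% higher as the median log2 fold change of all genes moved from -0.03 to -0.32. Gimap7 was called in late liver under 19 of the 23 alternatives, with log2 fold changes of 1.72 to 2.31. The other members called in late liver were called under fewer of the 23, Gimap8 under 15, Gimap5 under 13, Gimap1 under 12 and Gimap4 under 11.

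**Figure D3:**
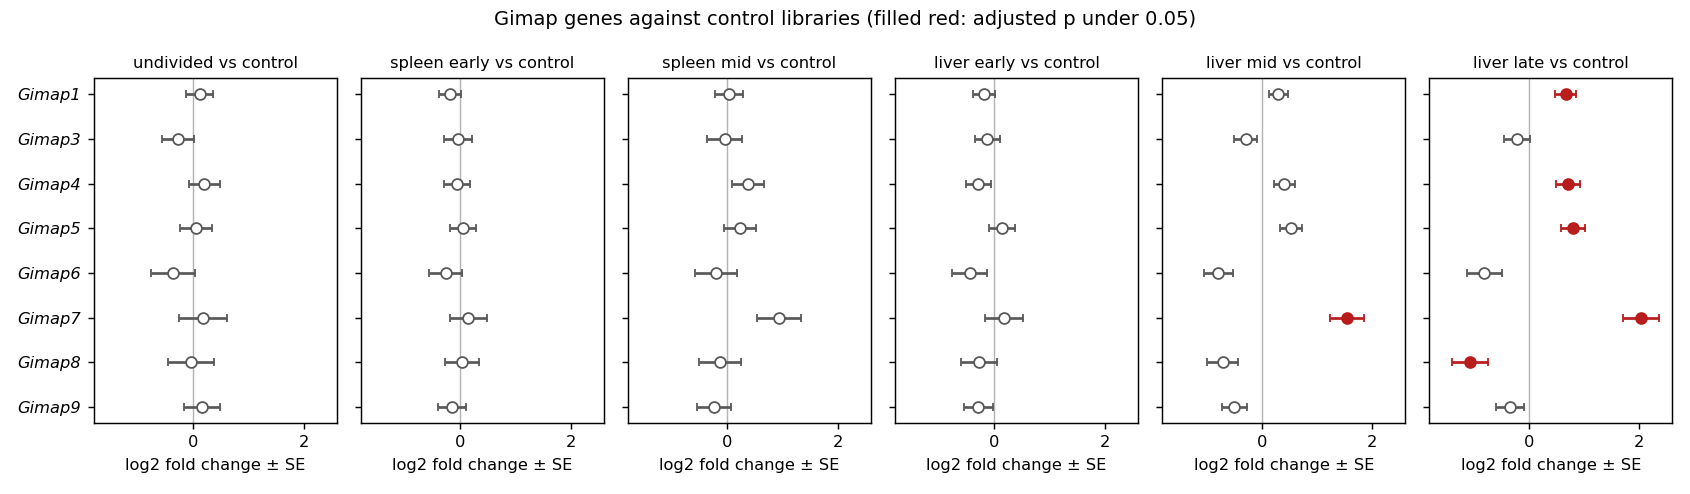
Log2 fold change of each Gimap gene against the control libraries (horizontal axis, points with SE bars from the edgeR fits), 1 panel for each group. Filled red points had an adjusted p under 0.05, which was 1 gene in mid liver, 5 genes in late liver and 0 in the other panels, and the values in those other panels ran from -0.45 to 0.94.

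Ratios within a library do not depend on how libraries are scaled to each other. Gimap7 and Gimap4, which were higher in late liver, were set over Gimap6 and Gimap8, which were lower in the same libraries. Their separation therefore repeats those changes and is no separate support, and other gene pairs were not counted. The ratio of Gimap7 to Gimap6 counts was 0.111, 0.0634 and 0.118 in controls and 0.123 in undivided cells. It was 0.181 and 0.0939 in early liver, 0.593, 0.323 and 0.554 in mid liver and 0.956 and 0.535 in late liver. The mid and late liver libraries were all above the rest, the spleen libraries of leukemia-bearing mice (0.103 to 0.187) included. The ratio of Gimap7 to Gimap8 was 0.346 to 0.847 in controls, 1.29 to 3.79 in mid liver and 2.82 and 8.18 in late liver. Gimap4 to Gimap6, a pair of neighbours on opposite strands, went from 0.406 to 0.846 in controls to 1.19 to 1.69 in mid liver and 1.29 and 1.91 in late liver. The ratio of Gimap5 to its relative Gimap3 was 0.160 to 0.284 in controls and 0.248 to 0.687 in mid and late liver, so these overlapped, as the TG control held the 0.284.

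**Figure D4:**
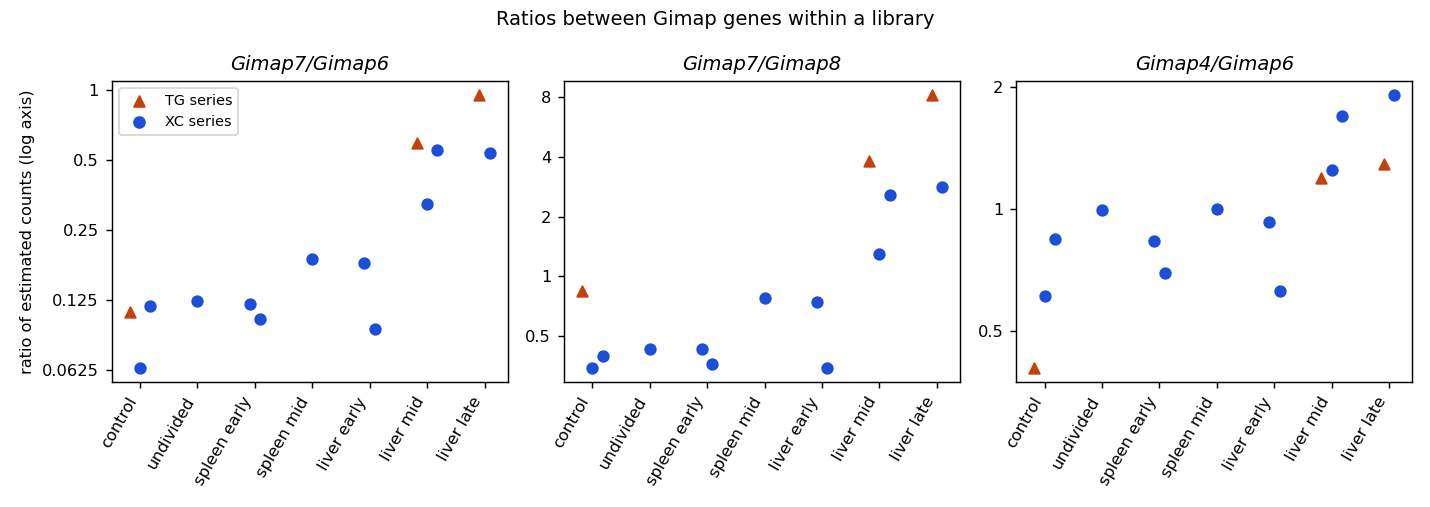
Ratio of the estimated counts of 2 Gimap genes within each low-input library (vertical log axis) by group, with triangles for the TG series and circles for the XC series. Each pair shown sets a member that was higher in late liver over a member that was lower in the same libraries. In all 3 panels (Gimap7 over Gimap6, Gimap7 over Gimap8 and Gimap4 over Gimap6) the 5 mid and late liver libraries lie above every other library, and for Gimap7 over Gimap8 the control libraries were at 0.346 to 0.847 and the late liver libraries at 2.82 and 8.18.

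The early time point showed no called change of a member. In early liver against control 0 of 8 members were called, against 0.0% of all genes, with log2 fold changes of -0.45 (Gimap6) to 0.17 (Gimap7) and adjusted p from 0.648 to 0.895 in edgeR's test. Without adjustment for the number of genes, 0 members (and 1493 of all genes) had p under 0.05 in the same test. DESeq2 called 0 members and 350 of all genes. The early libraries differed from each other, with Gimap6 at 418.4 and 587.8 CPM, Gimap8 at 101.3 and 158.2 CPM and Gimap9 at 58.0 and 109.0 CPM. Without the second early library 1 member, Gimap9, was called lower, as 1902 of all 14363 genes were called in that fit.

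Undivided cells came from leukemia-bearing mice but had kept their dye. That library lay above all 3 controls for Gimap4 (532.6 against at most 466.7 CPM) and Gimap1 (325.5 against at most 316.2 CPM). It lay below them for Gimap3 (659.5 against at least 721.8 CPM) and Gimap6 (536.6 against at least 551.7 CPM). The share of all genes outside the range of the controls was not counted, for this library or for mid spleen below, so these positions only describe 1 library. Against control 0 of 8 were called (0.0% of all genes), with log2 fold changes of -0.36 to 0.20, 0 members at an unadjusted p under 0.05 and 0 called by DESeq2. With 1 undivided library the test borrows its spread from the other groups. Gimap7 was at 66.0 CPM there and 3.61-fold higher in late liver by the fit, a log2 fold change of 1.85 ± 0.51, but 0 of 8 members passed in late liver against undivided cells (0.0% of all genes, adjusted p of Gimap7 0.107 in edgeR's test). At an unadjusted p under 0.05 there were 3 members (Gimap7, Gimap8 and Gimap5) and 3782 of all 14600 genes. DESeq2 called 1 member, Gimap7, and 1877 of all genes. Without the first or the second early liver library edgeR called Gimap7 too, with 2140 and 2195 of all genes.

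Leukemia-bearing mice also gave 3 spleen libraries, the same organ as the controls. In these Gimap7 was at 73.4 and 54.5 CPM in early spleen and at 111.1 CPM in mid spleen, the highest value outside mid and late liver. The mid spleen log2 fold change over control was 0.94 ± 0.40, the only member with an unadjusted p under 0.05 (0.0404) in that comparison, with an adjusted p of 0.84 in edgeR's test, which takes the spread of this 1 library from the other groups, and 795 of all 15449 genes had an unadjusted p under 0.05. Gimap4 was at 595.4 CPM in mid spleen, above all 3 controls, with a log2 fold change of 0.37 ± 0.29. Called members were 0 of 8 in early spleen against control (0.0% of all genes) and 0 of 8 in mid spleen against control (0.00647% of all genes), and DESeq2 called 0 in both. In early spleen 0 members had an unadjusted p under 0.05, and DESeq2 called 14 of all genes.

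Liver against spleen at the same time point gave 0 called members early (0.0% of all genes) and 0 mid (0.00647%), with 0 members at an unadjusted p under 0.05 in edgeR's test and 0 called by DESeq2. In the mid comparison, 3 libraries against 1, the log2 differences were 0.63 ± 0.43 for Gimap7, -0.55 ± 0.36 for Gimap6 and -0.54 ± 0.36 for Gimap8. All 3 mid liver libraries were above the mid spleen library for Gimap7 (147.5, 163.7 and 230.3 against 111.1 CPM), Gimap1 and Gimap5. They were below it for Gimap6 (249.0, 507.3 and 415.5 against 594.8 CPM) and Gimap8. The share of all genes with no overlap was not counted for this comparison, so these positions only describe the libraries. In the early comparison DESeq2 called 59 of all genes. Late against mid liver likewise had 0 called members (0.0% of all genes), 0 at an unadjusted p under 0.05 and 0 by DESeq2 (32 of all genes), with log2 differences of -0.36 to 0.48.

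The members fell into groups by how they varied over the 14 low-input libraries. Pearson's r of log2 CPM was 0.83 for Gimap1 and Gimap7, 0.79 for Gimap1 and Gimap5 and 0.78 for Gimap5 and Gimap7. It was 0.82 for Gimap6 and Gimap8, 0.82 for Gimap3 and Gimap6 and 0.74 for Gimap3 and Gimap8. Between these sets it ran from -0.91 (Gimap5 and Gimap8) to -0.40 (Gimap1 and Gimap3). Gimap4 and Gimap9 were in neither set, with r of 0.47 for Gimap4 and Gimap7 and -0.44 for Gimap4 and Gimap9. These are descriptions over libraries that share the TG and XC series and the same time points. Gimap7, Gimap1 and Gimap5 are consecutive genes on the plus strand, the ones that Gm28053 spans, while Gimap8, Gimap6 and Gimap3 are not neighbours of each other and lie on both strands.

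**Figure D5:**
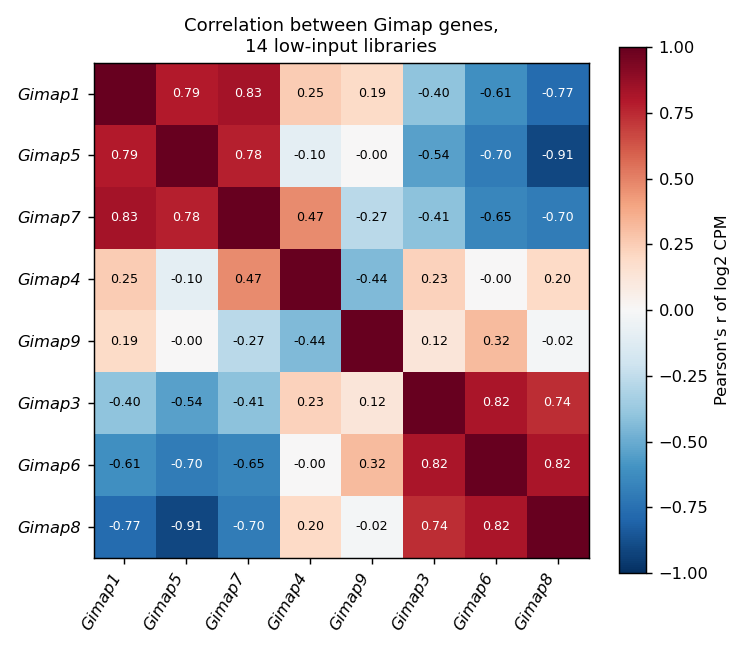
Pearson's r of log2 CPM between each pair of Gimap genes over the 14 low-input libraries, on a colour scale from -1 to 1 (red positive, blue negative). Gimap1, Gimap5 and Gimap7 form 1 positive block (0.78 to 0.83) and Gimap3, Gimap6 and Gimap8 another (0.74 to 0.82), with negative values between them.

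The 250 bases before the RefSeq start (GRCm38.p6) are shown for the 4 members that were higher in late liver (Gimap7, Gimap5, Gimap1 and Gimap4) and for the pair that was lower in mid and late liver together (Gimap6 and Gimap8), because these members moved in opposite directions from 1 cluster. All 8 members had an entry. Gimap8 had another start, with the window chr6:48647111-48647360, which is not printed and held none of the letters searched below. Each was searched on both strands for letters that ETS (CCGGAA), RUNX (TGTGGT), NFAT (GGAAAA), AP-1 (TGANTCA), FOXO (GTAAACA) and TCF (CTTTGA) factors are known to prefer. The ETS and NFAT letters share the run GGAA and can overlap in part. Capitals mark a match, read 5′ to 3′ on the gene's own strand.
Gimap7: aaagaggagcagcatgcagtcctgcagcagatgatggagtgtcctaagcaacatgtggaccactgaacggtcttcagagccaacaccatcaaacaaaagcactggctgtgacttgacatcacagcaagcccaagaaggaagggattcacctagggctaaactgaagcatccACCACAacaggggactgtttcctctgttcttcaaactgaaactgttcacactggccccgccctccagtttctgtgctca
Gimap5: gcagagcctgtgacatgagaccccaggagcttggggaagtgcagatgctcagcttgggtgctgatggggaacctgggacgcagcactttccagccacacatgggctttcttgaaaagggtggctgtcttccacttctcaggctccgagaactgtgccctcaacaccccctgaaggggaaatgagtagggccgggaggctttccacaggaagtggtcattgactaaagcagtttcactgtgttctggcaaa
Gimap1: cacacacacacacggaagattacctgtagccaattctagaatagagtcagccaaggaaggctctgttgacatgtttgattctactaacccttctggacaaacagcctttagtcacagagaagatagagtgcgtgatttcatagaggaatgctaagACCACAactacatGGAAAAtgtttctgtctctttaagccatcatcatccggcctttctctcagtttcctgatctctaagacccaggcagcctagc
Gimap4: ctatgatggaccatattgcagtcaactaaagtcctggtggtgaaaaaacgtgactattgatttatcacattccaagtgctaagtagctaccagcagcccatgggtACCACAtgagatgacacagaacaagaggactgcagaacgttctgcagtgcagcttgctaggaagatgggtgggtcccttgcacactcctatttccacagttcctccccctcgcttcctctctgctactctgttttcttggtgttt
Gimap6: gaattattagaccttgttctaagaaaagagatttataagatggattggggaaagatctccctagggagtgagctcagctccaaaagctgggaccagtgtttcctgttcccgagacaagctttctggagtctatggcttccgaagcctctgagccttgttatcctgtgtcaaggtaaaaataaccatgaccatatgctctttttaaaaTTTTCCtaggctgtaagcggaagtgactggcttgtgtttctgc
Gimap8: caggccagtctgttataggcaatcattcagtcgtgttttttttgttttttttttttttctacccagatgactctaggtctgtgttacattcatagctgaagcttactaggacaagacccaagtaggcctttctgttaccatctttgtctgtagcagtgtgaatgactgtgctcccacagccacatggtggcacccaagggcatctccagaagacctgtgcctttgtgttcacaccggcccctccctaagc

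The windows are chr6:48718371-48718620 (Gimap7), chr6:48745947-48746196 (Gimap5), chr6:48738797-48739046 (Gimap1), chr6:48684328-48684577 (Gimap4) and chr6:48646984-48647233 (Gimap8) on the plus strand and chr6:48708245-48708494 (Gimap6) on the minus strand. The RUNX letters occurred once each in Gimap7 (at -79 from the start), Gimap1 (-95) and Gimap4 (-145), each as ACCACA, the reverse complement, and in none of the other members, Gimap5 included. Of 32851 promoters of the same length, 14.0% held them. The NFAT letters occurred in Gimap1 (-82), Gimap6 (-43) and Gimap3 (-49), in the last pair as TTTTCC, and in 20.4% of all promoters. The FOXO letters occurred in Gimap3 alone (-247), and in 3.2% of all promoters. ETS (12.0%), AP-1 (6.7%) and TCF (13.8%) letters were in no member's window. A match is a description of the letters and was not tested for binding.

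Transcripts of a gene did not keep the same proportions. The files divide each gene's estimated counts among its transcripts. The longest Gimap6 transcript (3179 bases) held 26.2%, 43.6% and 18.5% of the gene's counts in controls, 3.27%, 12.5% and 11.6% in mid liver and 3.07% and 11.4% in late liver, the lower values being those of the TG libraries. All mid and late liver libraries were below all controls, and so were the undivided (16.7%) and mid spleen (16.6%) libraries. Early spleen (26.1% and 22.7%) and early liver (19.8% and 32.2%) lay within the range of the controls. The 1594-base transcript held 53.8% to 78.8% in controls, 80.8% in undivided cells, 81.9% in mid spleen and 86.2% to 96.9% in mid and late liver. For Gimap7 the retained-intron transcript (1006 bases) held 5.11% to 14.5% in controls and 1.19% to 2.6% in mid and late liver. It was also below all controls in the undivided (4.24%) and mid spleen (3.49%) libraries. The share of all transcripts that lay below the controls in these libraries was not counted. The Gimap8 transcripts followed the series more than the group, with the 2579-base transcript at 42.6% in the TG control, 19.3% and 24.5% in the TG liver libraries and 57.6% to 65.5% in the XC mid and late liver libraries. The 1359-base transcript of Gimap4 likewise held 5.59%, 3.85% and 2.06% in the TG control, mid and late libraries and 15.3% to 19.7% in the XC libraries of the same groups. These shares come from the estimated division of reads among overlapping transcripts and carry an error that the files do not give.

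Other GTPases of immune cells were counted beside the family, from lists of named genes. Over all genes, 17.3% rose and 13.9% fell in mid liver and 19.8% rose and 17.7% fell in late liver, and the counts in each list below stand against these shares. Of the guanylate-binding proteins (Gbp genes, interferon-induced GTPases of host defence) 10 of 11 were tested, and 0 rose and 4 fell in mid liver, 0 rose and 7 fell in late liver, with a median log2 fold change of -1.51 late. Gbp9 fell by 1.85 ± 0.44 on the log2 scale late (adjusted p = 0.0171) and Gbp11 by 5.82 ± 1.58 (adjusted p = 0.0263), the last from only 5.74 CPM in controls. Of the immunity-related GTPases, 7 of 9 were tested, and 2 fell in mid and 4 in late liver (median -1.17 late), among them Tgtp1 (-4.02 ± 0.81, adjusted p = 0.0144) and Tgtp2 (-1.96 ± 0.35, adjusted p = 0.0102), a pair of near-identical genes whose reads are uncertain. Of the septins, GTP-binding proteins of the cytoskeleton, 10 of 12 were tested, and in late liver 3 rose and 2 fell (median 0.01), near the shares over all genes, with log2 fold changes of 1.93 ± 0.60 for Sept10, 1.67 ± 0.46 for Sept11, -3.59 ± 0.79 for Sept3 and -3.55 ± 0.72 for Sept8. Sept10 was low throughout, at 0.302 CPM in controls and 1.22 CPM in late liver. In the Gbp and immunity-related lists no gene rose, whereas the Gimap members called in late liver were 4 higher and 1 lower.

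Genes whose proteins have been reported to bind or act with GIMAP proteins were also mixed. Of 13 tested, 3 rose and 2 fell in mid liver and 4 rose and 1 fell in late liver, which is close to the 31.3% and 37.5% of all genes called, with median log2 fold changes of 0.02 and 0.28. Gabarapl1, an autophagy protein of the GABARAP family, rose from 10.7 to 76.2 CPM (log2 fold change late 2.77 ± 0.81, adjusted p = 0.0337), and Bak1, which opens the mitochondrial membrane in apoptosis, from 2.38 to 9.97 CPM (1.80 ± 0.39, adjusted p = 0.014). Gsk3b, a kinase, fell by 0.89 ± 0.24 late (adjusted p = 0.0243), and Bcl2, a survival gene, fell by 0.94 ± 0.26 mid (adjusted p = 0.0302).

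Most listed genes of T cell survival and quiescence were lower in mid and late liver. Of 18 tested, 0 rose and 13 fell in mid liver and 0 rose and 12 fell in late liver (13.9% and 17.7% of all genes fell), and the others did not pass the test, with a median log2 fold change of -1.34 at both. Klf3, a transcription factor of resting T cells, went from 552.7 to 47.5 CPM late (-3.57 ± 0.63, adjusted p = 0.0111) and S1pr1, the receptor that lets T cells leave lymphoid organs, from 677.7 to 71.7 CPM (-3.31 ± 0.70, adjusted p = 0.0149). Gimap6 and Gimap8 were lower in the same libraries and Gimap1, Gimap4, Gimap5 and Gimap7 higher, so the members did not share 1 direction with this list.

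Genes around the cluster were counted out to 500 kb on each side. Of 36 with transcripts in the files, 18 were tested, and 2 rose and 3 fell in mid liver and 8 rose and 2 fell in late liver, with a median log2 fold change of 0.38 late. The mid count is near the 31.3% of all genes called, and late 19.8% of all genes rose and 17.7% fell. Those named by size were Sspo (6.11 ± 1.67 late, adjusted p = 0.0273) and the pseudogene Gm7887 (5.75 ± 1.62, adjusted p = 0.0304) among the genes that rose, both under 1 CPM in controls, and Tmem176b (-2.47 ± 0.51 mid, adjusted p = 0.022) and Tmem176a (-2.22 ± 0.53 mid, adjusted p = 0.0233), neighbours beyond the Gimap3 end, among those that fell. Gm28053, the gene model that runs through Gimap7, Gimap1 and Gimap5, went from 3.63 CPM in controls to 8.09 CPM in late liver (log2 fold change 1.13 ± 0.38, adjusted p = 0.0438), a level far below those of the 3 genes it spans.

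Among 5846 genes with a mean log2 CPM of at least 5, the 10 whose levels followed the mean z-score of the 8 members most closely over the 14 low-input libraries were Lamp1 (Pearson's r = 0.817), Tpp1 (0.813), Irak4, Mob3a, Irf2, Laptm5, Phyh, Keap1, Smpdl3a and Hsd17b4 (0.746). Lamp1 is a protein of the lysosomal membrane, Tpp1 a lysosomal peptidase and Irak4 a kinase of innate signalling. The 5 least alike were Itfg2 (-0.573), Taf1d, B230219D22Rik, Nle1 and Naa15 (-0.449). Since members moved in opposite directions, their mean is a weak summary. The genes most like Gimap7 alone, a choice made after the values were seen, were Fuca2 (0.977), Pglyrp1 (0.964), Sla (0.952), Icos (0.951) and Cops4 (0.947), and those most like Gimap8 alone were Zfp281 (0.992), Syne2 (0.985), Gbp4 (0.984), 9930111J21Rik1 (0.983) and Gbp9 (0.982).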

How the data were processed

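RNA-seq of 26 runs was used, which make 15 libraries. Per the methods, low-input sequencing was done in 2 batches, which the labels do not assign to libraries. Transcripts were quantified by kallisto, whose version is not given in the sources used here. For each transcript the deposited files hold an estimated count (an expected count, which need not be whole) and TPM, which the authors' software normalized for length and depth. The submitters' processing notes name bcl2fastq and kallisto.

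Estimated counts were summed per gene (GENCODE vM21, GRCm38, 98.18% of transcripts assigned) and over the runs of a library, then rounded. CPM were scaled by TMM. Runs of one library differed by a median of 0.031 (log2) for the members. Genes that reached 10 counts in 6 or more libraries were tested with edgeR 4.0.16 (quasi-likelihood, robust, two-sided, R 4.3.3) with group and series as terms, in fits of 11 libraries and, for spleen, 14 libraries, with Benjamini-Hochberg adjustment over all genes tested and a threshold of 0.05. Log2 CPM had a prior count of 2. DESeq2 1.42.0, other scalings and filters, single runs, other sample sets and leaving out each replicate were alternatives. On simulated data with known changes, a true log2 change of 2 was called in 51% of the altered genes for late against control (14397 genes) and in 65.5% for mid against control (14408 genes), and a true change of 1 in 0% for either (14398 and 14419 genes). The simulation altered only a small part of the genes and had no series effect, so these rates need not hold for the real data. Promoters were RefSeq's, and coding sequences were aligned with Biopython 1.88.

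All 8 members are named, other lists by counts with at most 4 genes, those of largest change among genes called in mid or late liver. The members and lists were chosen with earlier results of these data known. Kallisto divides reads among similar transcripts, and that error is in no test. The methods name no molecular identifiers, and reads may include PCR copies. Antisense and overlapping transcripts could not be told apart, and the Gimap1 antisense RNA was not analysed here.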

Additional observations from a re-analysis of the deposited data

Results flagged for a closer look

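The control library made with oligo-dT priming entered no comparison, and 4 members were above the highest low-input control there. Gimap8 was at 271.0 CPM against at most 163.6 CPM, Gimap6 at 944.8 against at most 740.2 CPM, Gimap3 at 872.3 against at most 763.8 CPM and Gimap9 at 155.6 against at most 129.7 CPM. Gimap1 was below the low-input controls there, at 172.0 CPM against at least 297.6 CPM, and so was Gimap5, at 106.4 CPM against at least 122.5 CPM. The share of all genes that lay outside the range of the controls was not counted. It is 1 library of another preparation, and preparation and library cannot be told apart. No group held enough libraries to be tested for a library that stands apart.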

How the results depend on the processing

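No member changed sign in any of 23 alternatives of the mid, late or combined liver comparisons with control. Members called in late liver against control (5 of 8 as reported) numbered 3 with library totals only, 1 with no series term, 1 with day 0 controls only, and, in alternatives chosen after seeing the data, 0 in the XC series alone and 2 with counts scaled from TPM. In mid liver (1 of 8) they numbered 3 with DESeq2 (5453 of all genes), 2 with library totals only (4696) and 3 with no count filter (5708 of 29482). There were 2 with at least 10 counts in every library (4387 of 11897 genes) and 4 with only the groups compared (5567). The XC series alone gave 0, and leaving out both early liver libraries gave 5 (5843 of all genes). In mid and late liver together (6 of 8) they numbered 1 with no series term, 3 with day 0 controls only and 0 in the XC series alone. In late liver against undivided cells (0 of 8) DESeq2, no count filter and leaving out both early liver libraries each gave 1, Gimap7. Leaving out 1 library gave 0 to 6 in late liver, 0 to 5 in mid liver, 0 to 7 in both together, 0 to 1 in early liver and 0 to 1 in late liver against undivided cells, and leaving 1 library in a group assumes that it varies like the others. Genes called over the whole table moved as well, in late liver from 5475 to 2693 with no series term, 0 in the XC series alone and 0 to 6662 when 1 library was left out, and in mid liver from 4567 to 1385 with no series term and 0 to 5973. Late, 5645 of all genes were called with library totals only, 4126 with day 0 controls only and 4184 with counts scaled from TPM. In mid and late liver together 4238 were called with no series term and 5417 with day 0 controls only. The cause of these moves was not tested, and some of these fits also hold fewer libraries. The median level of the members was 265.4 CPM, 243.8 with library totals only and 268.2 from the first runs. Late liver against undivided cells could not be fitted with only those groups. No paired analysis was possible because the labels give no replicate numbers that libraries share. In the simulated data 0% of true log2 changes of 1 were called, whereas late changes of 0.67, 0.71 and 0.80 were called in the real data. The settings differ. The simulation altered only a small part of the genes and had no series effect, while 5475 genes were called in the real late fit. Its rates therefore cannot be set against the real calls, and the cause of the difference was not tested.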
